A study of Homo sapiens with 12 samples.

Results

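Transcripts of the mitochondrial ribosomal proteins were followed in 22Rv1 cells, an established human prostate carcinoma line, on 12 Affymetrix U133 Plus 2.0 expression arrays. The genes were chosen by symbol, as all those whose platform symbol is MRPL (large subunit) or MRPS (small subunit) and a digit. The symbols gave 75 genes of 19775 named on the array, 48 of the large and 27 of the small subunit, read by 140 probe sets. A further 6 probe sets were set aside, 1 for an antisense transcript (MRPL20-AS1), 1 for a pseudogene (MRPL45P2) and 4 that carry several symbols, so that MRPL53 and MRPS24 have no value here. MRPS36 was not among the named probe sets.

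The 4 groups of 3 arrays were vehicle-treated 22Rv1 cells and 22Rv1 cells exposed for 4 h, 6 h or 16 h to a compound that the series title describes as inhibiting ONECUT2, a homeodomain transcription factor. All groups were grown in RPMI-1640 medium with serum. The labels give no time for the vehicle cells. A code in the titles of the vehicle, 4 h and 6 h arrays, which the labels do not explain, is missing from the 16 h titles, so that compound, time and whatever the code stands for cannot be told apart at 16 h. Whether replicates came from separate cultures is not stated, and the p-values then cover only array-to-array spread, which could be purely technical.

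The mitochondrial ribosome makes the few proteins that mitochondrial DNA encodes, which are core subunits of the respiratory chain and of ATP synthase. Its RNAs come from mitochondrial DNA, but all its proteins are encoded in the nucleus, made in the cytosol and imported. Some of them have bacterial relatives, and others occur only in mitochondria. The small subunit holds the decoding centre, where codons are read. The large subunit holds the peptidyl transferase centre, a stalk that recruits elongation factors, a central protuberance that contacts the small subunit, and a tunnel through which the new chain leaves towards the inner membrane.

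All 75 genes were measurable. A gene is given by its brightest probe set, on the deposited log2 scale, and the lowest value of any of the 75 genes on any array was 5.45, against 2.28 for the highest unspiked bacterial control. A gene is said to have risen, fallen or changed where limma's test across all 12635 genes gave a Benjamini-Hochberg adjusted p below 0.05.

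At 16 h genes of the family moved both ways, as did all genes tested. Of the 75 genes, 18 fell (24%) and 9 rose (12%), while 48 did not pass the test. Over all 12635 genes tested, 16.8% fell, 26.0% rose and 42.8% did one or the other, against 36% of the family. The median change was -0.03 on the log2 scale for the family and 0.05 for all genes, and the median size of a change, whatever its sign, was 0.13 and 0.22. For 34 of the 75 genes (45.3%) the 16 h and vehicle arrays did not overlap, which held for 51.5% of all genes. After each array was centred on its median, 25 of the 75 fell and 3 rose, with a median of -0.13 against -0.05 for all genes, of which 3024 fell and 2422 rose under that scaling. Thus the balance of falls and rises depends on the scaling.

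**Figure D1:**
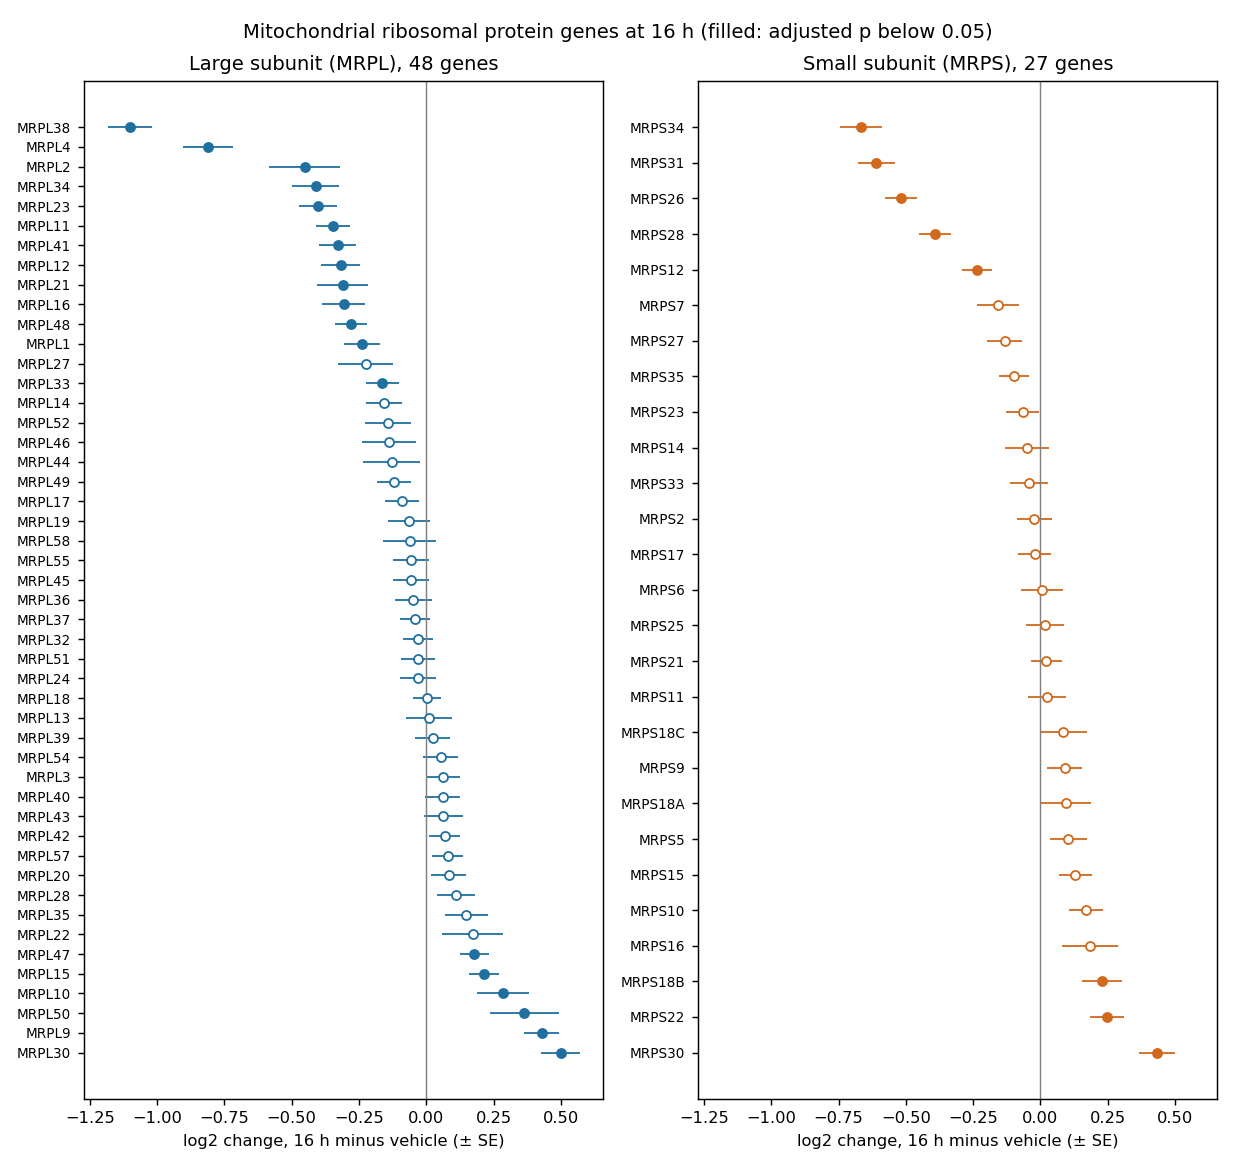
Change at 16 h against vehicle for each gene, on the log2 scale with its standard error, large subunit on the left and small subunit on the right; filled points have an adjusted p below 0.05. Changes run from -1.10 (MRPL38) to 0.50 (MRPL30), and 48 of the 75 points are open.

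Some measures of RNA on the arrays moved with the 16 h group. The log2 difference between the 3' and the 5' control probe sets of ACTB was 2.80 ± 0.07 (SD, n = 3) on vehicle arrays and 4.09 ± 0.09 at 16 h. That of GAPDH was -0.46 ± 0.02 and -0.43 ± 0.04, with arrays that overlapped. The 18S ribosomal RNA signal was 9.62 ± 0.29 in vehicle and 11.06 ± 0.10 at 16 h, but it was also 8.98 ± 0.14 at 4 h and 8.64 ± 0.19 at 6 h. Of 12 prostate epithelial markers 10 had a named probe set, none lay at the control floor on all arrays, and their summed log2 level was 12.69 to 12.73 in vehicle and 12.75 to 12.83 at 16 h, a sum carried by the brightest of them. At 16 h 4 of these 10 fell (40.0%) and 1 rose (10.0%), beside 16.8% and 26.0% of all genes tested. Their median change was -0.12, with 5 below 0 and 5 above. The mean of KLK2 was 6.38 in vehicle and 5.09 at 16 h, and HOXB13 changed by -1.06. Means of KRT18 were 11.285 and 11.484, those of CDH1 10.615 and 10.726, and those of EPCAM 10.141 and 10.240. Of 8 fibroblast markers 3 (COL1A2, FAP and PDGFRB) lay at the floor on all arrays, and the sum was 7.14 to 7.31 in vehicle and 7.44 to 7.69 at 16 h. Of the 5 that were tested 2 rose and 3 fell at 16 h, with means of 3.77 and 5.83 for COL1A1, 4.10 and 5.35 for LUM, 3.44 and 2.85 for DCN, 2.43 and 2.06 for COL3A1, and 6.52 and 6.19 for VIM. Of 8 leukocyte and endothelial markers 7 were named and 4 lay at the floor, with sums of 4.58 to 4.70 and 4.46 to 4.60. The part of any of these in the results below was not tested. In RNA from a whole culture, fewer cells of a kind and less RNA per cell cannot be told apart.

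MRPL38, a protein of the central protuberance with no bacterial relative, fell most. Its signal was 7.94, 7.86 and 7.92 on the vehicle arrays, 7.80, 7.93 and 7.95 at 4 h, 7.89, 8.03 and 7.91 at 6 h, and 6.62, 6.86 and 6.93 at 16 h. The 16 h arrays lay below every other array, by a log2 change of -1.10 ± 0.08 (SE), a 2.1-fold lower signal (limma adjusted p = 1e-06). A second probe set of MRPL38 was too dim to test, with a mean of 1.84, and the average of both gave -0.50.

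MRPL4, the relative of a bacterial protein that lines the exit tunnel, read 7.80, 7.64 and 7.62 in vehicle and 6.73, 6.83 and 7.06 at 16 h, with values of 7.40 to 7.58 at 4 h and 7.66 to 7.81 at 6 h. The change at 16 h was -0.81 ± 0.09 (SE; limma adjusted p = 3.1e-05). This rests on the probe set, since the other 2 of MRPL4 gave -0.24 and 0.18, neither past the test, and a choice that avoids probe sets able to bind several transcripts takes the last of them.

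MRPL2 and MRPL34, also related to bacterial proteins, had smaller falls. MRPL2, whose bacterial relative sits beside the peptidyl transferase centre, read 6.39, 5.92 and 5.76 in vehicle and 5.65, 5.45 and 5.61 at 16 h. The first vehicle array stood above the other 2, and the change of -0.45 ± 0.13 had an adjusted p of 0.0156 by limma, or 0.0619 without the second 16 h array. Without that first vehicle array MRPL2 was at -0.27 and still passed, and with only vehicle and 16 h arrays in the fit its adjusted p was 0.0519. MRPL34 read 8.82, 8.66 and 8.64 in vehicle and 8.43, 8.32 and 8.13 at 16 h, a change of -0.41 ± 0.09 (limma adjusted p = 0.00284). For both genes the 16 h arrays lay below all vehicle arrays. The other large-subunit falls, beside those of the stalk, the tunnel rim and the central protuberance were MRPL41 (-0.33), MRPL21 (-0.31), MRPL16 (-0.31), MRPL1 (-0.24) and MRPL33 (-0.16). MRPL33 passed narrowly (limma adjusted p = 0.0488) and did not pass in a limma fit over all probe sets (adjusted p = 0.0724). A second probe set of MRPL41 gave -0.13 and did not pass.

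Small-subunit falls were led by MRPS34, MRPS31 and MRPS26, which have no bacterial relatives. MRPS34, which helps to keep the small-subunit RNA stable, read 6.71, 6.53 and 6.48 in vehicle, 6.25, 6.28 and 6.42 at 4 h, 6.43, 6.59 and 6.50 at 6 h, and 5.86, 5.89 and 5.97 at 16 h. It was lowest at 16 h on every array, by -0.67 ± 0.08 (limma adjusted p = 4.4e-05). MRPS31 went from 8.14, 7.92 and 8.02 to 7.46, 7.34 and 7.45 at 16 h, a change of -0.61 ± 0.07 (limma adjusted p = 2.7e-05). A second probe set of MRPS31, nearly as bright, gave 0.19 and did not pass. MRPS26 went from 9.63, 9.48 and 9.58 to 9.01, 9.03 and 9.10, a change of -0.52 ± 0.06 (limma adjusted p = 3.6e-05), and the 16 h arrays lay below all others. Averaging all probe sets of a gene gave -0.18 for MRPS31 and -0.27 for MRPS26, both still past the test.

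The other small-subunit falls were MRPS28 (-0.39) and MRPS12 (-0.24). MRPS12 belongs to the decoding centre, and its bacterial relative sets the accuracy of codon reading. Its signal was 9.60, 9.51 and 9.51 in vehicle and 9.30, 9.32 and 9.29 at 16 h (limma adjusted p = 0.00519), and the groups did not overlap. The average over its 4 probe sets showed no fall, at 0.01.

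Rises were fewer and smaller. MRPL30, a protein of the large-subunit body with a bacterial relative, read 8.47, 8.62 and 8.72 in vehicle, 8.51 to 8.61 at 4 h, 8.50 to 8.61 at 6 h, and 9.08, 9.13 and 9.11 at 16 h. Its rise of 0.50 ± 0.07 (limma adjusted p = 0.000181) put the 16 h arrays above all others. The next brightest probe sets of MRPL30 gave 0.002 and -0.04 and did not pass (limma adjusted p = 0.992 and 0.831). Dimmer ones rose by 0.25 and 0.28. MRPS30 is named for the small subunit but sits in the large one. It read 8.90, 8.94 and 8.87 in vehicle and 9.31, 9.24 and 9.47 at 16 h, a rise of 0.43 ± 0.07 (limma adjusted p = 0.000351). MRPL9, a relative of a bacterial protein that reaches out from the large subunit, went from 10.54, 10.66 and 10.67 to 11.00, 11.14 and 11.01, a rise of 0.43 ± 0.06 (limma adjusted p = 0.000265). Averages over probe sets were 0.20 for MRPL30 and 0.14 for MRPS30, both past the test, though a second probe set of MRPS30 fell, as described below.

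The remaining rises were MRPL50 (0.37), MRPS22 (0.25), MRPS18B (0.23), MRPL15 (0.21) and MRPL47 (0.18), besides MRPL10. MRPS22, a mitochondria-specific small-subunit protein, read 9.57, 9.70 and 9.65 in vehicle and 9.85, 9.84 and 9.97 at 16 h. MRPL50 read 7.52, 7.98 and 8.14 in vehicle and 8.20, 8.31 and 8.23 at 16 h, so that 1 low vehicle array carried much of the difference; without it the change was 0.19 (limma adjusted p = 0.102). MRPS18B was likewise at 0.15 without that array (adjusted p = 0.11), and MRPL47, at the rim of the exit tunnel, had an adjusted p of 0.0634 without the second vehicle array. These 3 calls, and those of MRPS22, MRPL15 and MRPL10, were also lost when arrays were centred on their medians, with changes of 0.27 for MRPL50, 0.15 for MRPS22, 0.13 for MRPS18B, 0.12 for MRPL15, 0.19 for MRPL10 and 0.08 for MRPL47. With only vehicle and 16 h arrays in the fit, MRPL50, MRPS18B, MRPL15, MRPL47 and MRPL10 had limma adjusted p of 0.0512 to 0.0923. Averaged with a dim second probe set, MRPL47 stood at -0.01.

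**Figure D2:**
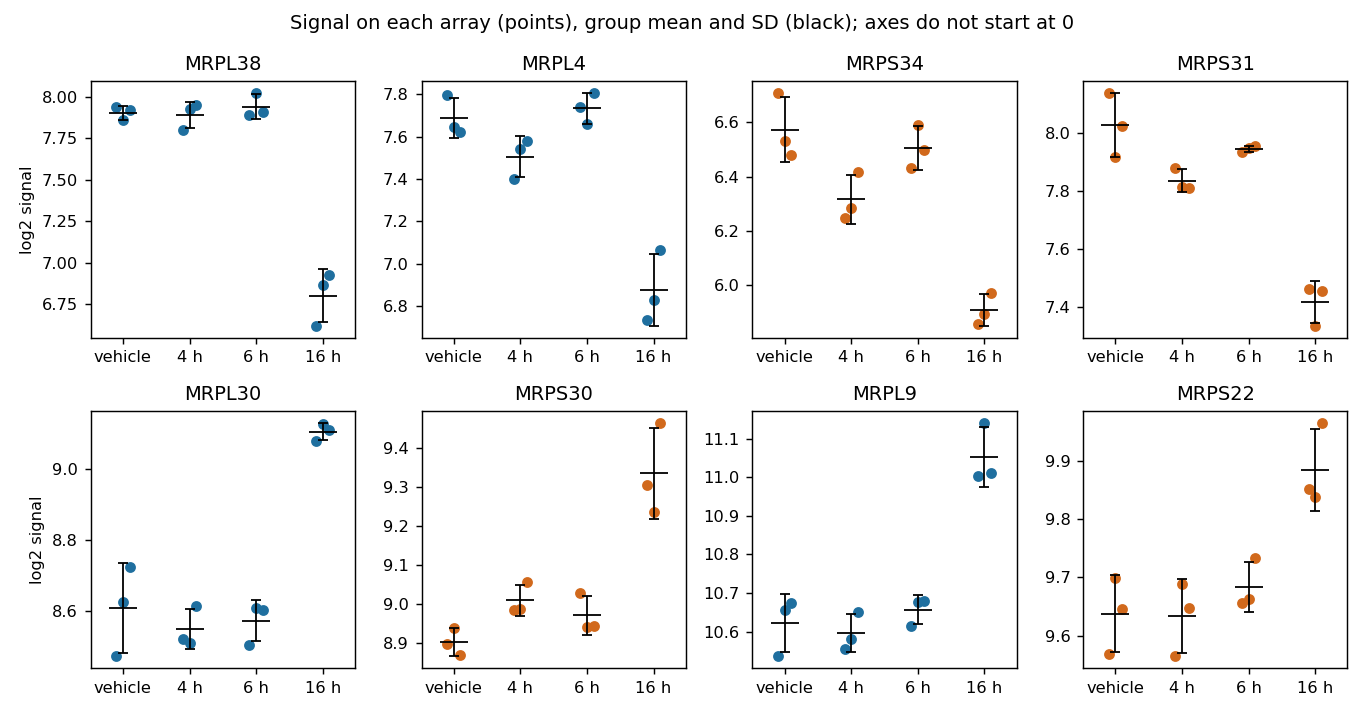
Log2 signal on each array for 4 genes that fell (top) and 4 that rose (bottom) at 16 h, with the mean and SD of 3 arrays per group; axes do not start at 0. The 16 h arrays lie apart from the vehicle, 4 h and 6 h arrays in each of the 8 panels.

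Within the stalk and its base, 2 of the 3 measured genes fell (66.7%) and 1 rose (33.3%), beside 16.8% and 26.0% of all genes tested. MRPL11, which forms the base, read 8.90, 8.94 and 8.95 in vehicle and 8.70, 8.50 and 8.56 at 16 h, a fall of 0.35 on the log2 scale (limma adjusted p = 0.000969). MRPL12, the mobile protein that recruits translation factors, read 8.60, 8.38 and 8.45 in vehicle and 8.14, 8.15 and 8.18 at 16 h, a change of -0.32 (limma adjusted p = 0.00372). Averaging MRPL12 with a second probe set that reads 1.52 in vehicle, below the controls, gave 0.11. MRPL10, which anchors MRPL12, rose by 0.29 (limma adjusted p = 0.0296), but its arrays overlapped, with 6.56, 6.41 and 6.35 in vehicle and 6.52, 6.80 and 6.87 at 16 h. The call for MRPL10 was lost without the second vehicle array, the third vehicle array, the second 16 h array or the third 16 h array, with adjusted p of 0.0776 to 0.116.

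At the rim of the exit tunnel 1 of 6 genes fell and 1 rose (16.7% each), beside 16.8% and 26.0% of all genes tested. MRPL23 went from 10.15, 9.91 and 9.94 to 9.53, 9.64 and 9.62, a change of -0.40 ± 0.07 (limma adjusted p = 0.000781), or -0.13 and not past the test when averaged with a dim probe set. MRPL45, which anchors the ribosome to the inner membrane, read 7.75, 7.75 and 7.74 in vehicle and 7.73, 7.74 and 7.60 at 16 h and did not pass (limma adjusted p = 0.532). Of the 8 central protuberance genes, MRPL38 and MRPL48 (-0.28) fell and none rose. Their median change was -0.14, against 0.05 over all genes.

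The 3 paralogues of bacterial S18 are MRPS18A, placed in the large subunit, and MRPS18B and MRPS18C of the small subunit. Their brightest probe sets gave 0.10, 0.23 and 0.09, of which MRPS18B passed. A second probe set of MRPS18B fell by 0.68 on the log2 scale and turned the average of both to -0.23, and the call for its brightest probe set was lost in 6 alternatives. A second probe set of MRPS18A rose by 0.70, from a mean of 5.15 to 5.85, and the average of both probe sets, at 0.40, passed as well.

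Large and small subunits were compared over their whole lists. In the large subunit 13 of 48 genes fell (27.1%) and 6 rose (12.5%), beside 16.8% and 26.0% of all genes, with a median change of -0.05 and quartiles of -0.23 and 0.06. In the small subunit 5 of 27 fell (18.5%, near the share of all genes) and 3 rose (11.1%), with a median of 0.01, which turned to -0.02 under quantile normalisation and -0.09 under median centring. Moving MRPS18A and MRPS30 to the large subunit, where the proteins sit, gave medians of -0.05 and -0.02. On single arrays the large-subunit median minus the small-subunit median was -0.12, -0.06 and 0.03 at 16 h and -0.02, 0.00 and 0.01 in vehicle. The 16 h arrays thus lay on both sides of the vehicle arrays, and the subunits did not separate beyond the spread between arrays.

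By ancestry, 10 of 30 large-subunit genes with bacterial relatives fell and 5 rose, with a median of -0.05, and 3 of 18 specific to mitochondria fell and 1 rose, also with a median of -0.05. Among the small-subunit genes 2 of 16 with bacterial relatives fell and 1 rose, with a median of 0.02. Of the 9 small-subunit genes specific to mitochondria 3 fell and 1 rose, and the median was -0.10. Over all genes 16.8% fell and 26.0% rose, beside shares that fell of 33.3%, 16.7%, 12.5% and 33.3% in these 4 groups.

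Promoters of genes that fell and of genes that rose at 16 h are shown. Each is given 5' to 3' on the gene's own strand, from 250 bases before the annotated start to 30 after it, from RefSeq on GRCh38.p14. Capitals mark matches, on either strand, to the cores of the ETS (CCGGAAG), YY1 (AAGATGGCG), NRF1 (GCGCATGC) and SP1 (GGGCGG) motifs, to the E-box (CACGTG), to an ATF4 half-site (TGATGNAA) or to an ONECUT core (ATCGAT). The first 2 lines are genes that fell, and the last 2 are genes that rose.
MRPL38, chr17:75904855-75905134, minus strand: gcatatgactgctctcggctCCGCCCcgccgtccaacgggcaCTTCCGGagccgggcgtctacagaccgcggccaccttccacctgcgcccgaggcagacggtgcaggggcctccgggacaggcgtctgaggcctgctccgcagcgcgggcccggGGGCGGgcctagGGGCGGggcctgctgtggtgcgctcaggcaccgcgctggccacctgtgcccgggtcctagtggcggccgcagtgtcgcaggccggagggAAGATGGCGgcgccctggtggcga
MRPL4, chr19:10251701-10251980, plus strand: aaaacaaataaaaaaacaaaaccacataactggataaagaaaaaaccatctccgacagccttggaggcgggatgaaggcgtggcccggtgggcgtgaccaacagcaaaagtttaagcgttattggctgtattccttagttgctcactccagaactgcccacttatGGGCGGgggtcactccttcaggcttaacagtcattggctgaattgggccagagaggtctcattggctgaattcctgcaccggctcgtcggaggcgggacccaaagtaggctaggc
MRPL30, chr2:99180934-99181213, plus strand: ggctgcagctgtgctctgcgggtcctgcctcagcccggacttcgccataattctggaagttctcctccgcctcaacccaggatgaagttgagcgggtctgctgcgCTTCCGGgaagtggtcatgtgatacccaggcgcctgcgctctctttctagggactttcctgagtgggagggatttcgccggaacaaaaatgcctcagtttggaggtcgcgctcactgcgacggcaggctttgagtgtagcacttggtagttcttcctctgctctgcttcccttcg
MRPS30, chr5:44808697-44808976, plus strand: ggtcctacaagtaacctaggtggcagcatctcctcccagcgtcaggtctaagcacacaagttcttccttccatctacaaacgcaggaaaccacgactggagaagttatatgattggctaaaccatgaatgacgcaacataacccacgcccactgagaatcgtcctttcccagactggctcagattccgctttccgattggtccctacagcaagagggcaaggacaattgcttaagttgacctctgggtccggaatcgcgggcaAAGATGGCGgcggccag
The MRPL38 window held 1 ETS, 1 YY1 and 3 SP1 matches, MRPL4 held 1 SP1 match, MRPL30 held 1 ETS match, and MRPS30 held 1 YY1 match just after its start. Across the 67 of 75 genes with a RefSeq promoter, searched over 300 bases from 250 before to 50 after the start, 28 (41.8%) held the ETS core, against 19.1% of tested genes and 10.7% of all 27305 promoters. The YY1 core was found in 12 (17.9%), against 3.88% and 1.85%. The ETS core ends in the 3 letters with which the YY1 core begins, so that a single stretch can count for both. Shares closer to those of tested genes were found for the NRF1 core, in 6 (8.96% against 5.5%), the E-box, in 6 (8.96% against 10.2%), and the SP1 core, in 40 (59.7% against 69.2%). The ATF4 half-site was in 1 promoter (1.49% against 1.84%). The ONECUT core was in none of the 67, and in 0.854% of tested genes. No match is shown to be a working site.

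Among genes that fell, 8 of 14 promoters held the ETS core and 1 held the YY1 core. For genes that rose it was 3 of 7 for each, and for genes not past the test 17 and 8 of 46. Among tested genes that fell, rose or did not pass, the ETS core was in 18.1%, 22% and 18% and the YY1 core in 4.2%, 4.5% and 3.5%. The SP1 core was in 10 of 14, 1 of 7 and 29 of 46 genes of the family, against 71.1%, 71.1% and 67.8%, and the median GC content of the windows was 63%, 57% and 61.7%, beside 65.3% for all tested genes.

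At 4 h no gene of the family passed limma's test, against 0.459% of all genes tested, and none passed in any alternative fit. Unadjusted p-values below 0.05 were found for 11 of the 75 (14.7%, against 10.8% of all genes), and all 11 were lower at 4 h. In all, 60 of 75 were lower than vehicle (80.0%), where 49.1% of all genes were, and the median change was -0.06 against 0.003. For 22 of 75 genes (29.3%) the arrays did not overlap, against 18.3% of all genes. Across the alternatives 52 to 63 genes were lower. It was 55 of 71 where probe sets able to bind several transcripts were avoided for genes that had another. Genes with no other probe set kept theirs.

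The smallest adjusted p at 4 h was that of MRPL40, a central protuberance protein. MRPL40 read 8.62, 8.58 and 8.58 in vehicle, 8.33, 8.33 and 8.35 at 4 h, 8.53, 8.71 and 8.71 at 6 h, and 8.72, 8.62 and 8.62 at 16 h. The 4 h arrays lay together below the rest, by -0.25 ± 0.07, with an adjusted p of 0.157 by limma. The values of MRPS34, MRPS31 and MRPS26 at 4 h were -0.26, -0.19 and -0.16, with adjusted p of 0.246 to 0.354 in the same fit. MRPL45 read 7.69, 7.54 and 7.48 at 4 h, below its vehicle arrays at 7.74 to 7.75, a difference of -0.18 that did not pass.

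On single arrays, the median of the 75 genes relative to their vehicle means was -0.07, -0.06 and -0.02 at 4 h and 0.01, -0.02 and 0.01 in vehicle. Of the 48 large-subunit genes, 42, 38 and 32 lay below the vehicle mean on the 4 h arrays and 21, 32 and 22 on the vehicle arrays. Of the 27 small-subunit genes it was 20, 19 and 13 at 4 h and 13, 15 and 13 in vehicle. By these counts the third 4 h array thus reached the range of the vehicle arrays in both subunits. Its large-subunit median, at -0.036, lay below the lowest vehicle array, at -0.022. Of the other lists, 27 of 32 cytosolic large-subunit and 16 of 21 cytosolic small-subunit ribosomal proteins, 22 of 27 mitochondrial ribosome assembly factors, 15 of 16 import components, 12 of 18 genes for mitochondrial DNA and transcription and 10 of 17 translation factors were below 0 at 4 h. It was 6 of 14 for proteases and chaperones and 3 of 12 for regulators of mitochondrial gene expression, with medians of 0.03 and 0.07.

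**Figure D3:**
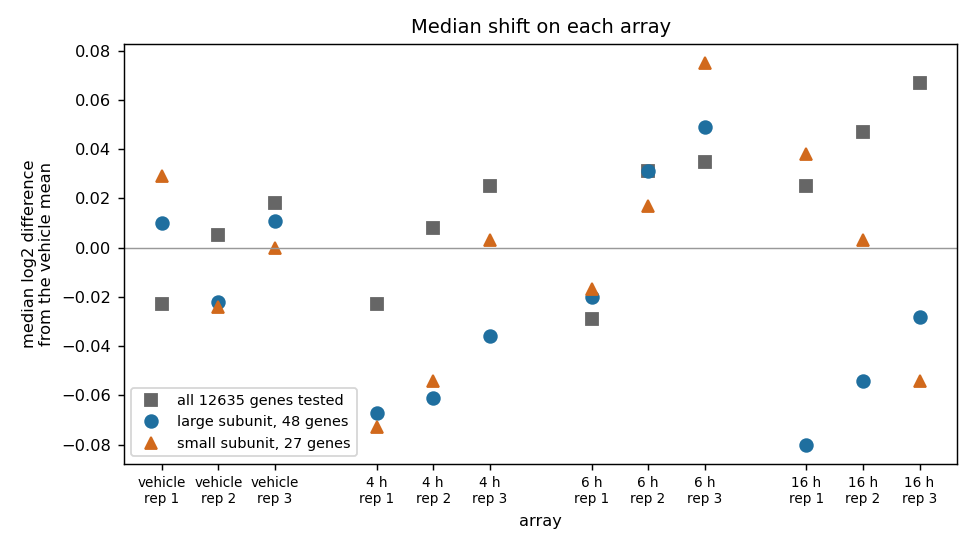
Median log2 difference from the vehicle mean on each of the 12 arrays, for all genes tested (squares), the large subunit (circles) and the small subunit (triangles). On the first 2 arrays at 4 h both subunits lie at -0.05 or lower, below every vehicle array, while the small subunit on the third 4 h array is at 0.00.

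At 6 h again no gene passed by limma, against 0.0317% of all genes, in this fit or in any alternative. An unadjusted p below 0.05 was found for 3 (4.0%, against 8.2% of all genes). The signs had turned, with 50 of 75 genes above vehicle, beside 6920 of all 12635. The median was 0.03, against 0.01 for all genes. Leaving out the third 6 h array, whose ACTB difference of 3.38 was above the 2.71 and 2.97 of the other 2, gave 38 of 75 above vehicle and a median of 0.002. The 3 genes were MRPL36 (0.19), MRPL44 (-0.26) and MRPL19 (-0.19), with adjusted p of 0.477 to 0.551.

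Set against the 4 h arrays, 62 of 75 genes were higher at 6 h, beside 6610 of all 12635, with a median of 0.07 against 0.01. This comparison shares its 4 h arrays with that of 4 h and vehicle, and its 6 h arrays with that of 6 h and vehicle. None passed by limma, against 0.0950% of all genes. The 11 with an unadjusted p below 0.05 (14.7%, against 9.4% of all genes) were all higher. With a trended and robust prior 2 genes passed, and with array weights 1. MRPL40 differed by 0.31 (limma adjusted p = 0.164), MRPL21 by 0.34 and MRPL36 by 0.25. MRPL21, a large-subunit protein with a bacterial relative, read 7.86, 8.16 and 8.19 at 4 h and 8.41, 8.36 and 8.47 at 6 h, so that 1 low array added to its difference.

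Between 6 h and 16 h, 19 of the 75 genes fell (25.3%) and 7 rose (9.33%), 34.7% in all, against 17.6%, 25.1% and 42.7% of all genes tested. With arrays centred on their medians 28 fell and 3 rose, and of all 12635 genes 3255 fell and 2374 rose. MRPL36, MRPL27 and MRPS7 fell and MRPL35 rose between these times without having passed against vehicle, by -0.23, -0.37, -0.27 and 0.24. For MRPL35 the arrays overlapped, and another of its probe sets went the other way, at -0.46 (limma adjusted p = 0.00186). A further one, at -0.21, did not pass. The values of MRPL38, MRPL4 and MRPS34 between these times were -1.14, -0.86 and -0.60.

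**Figure D4:**
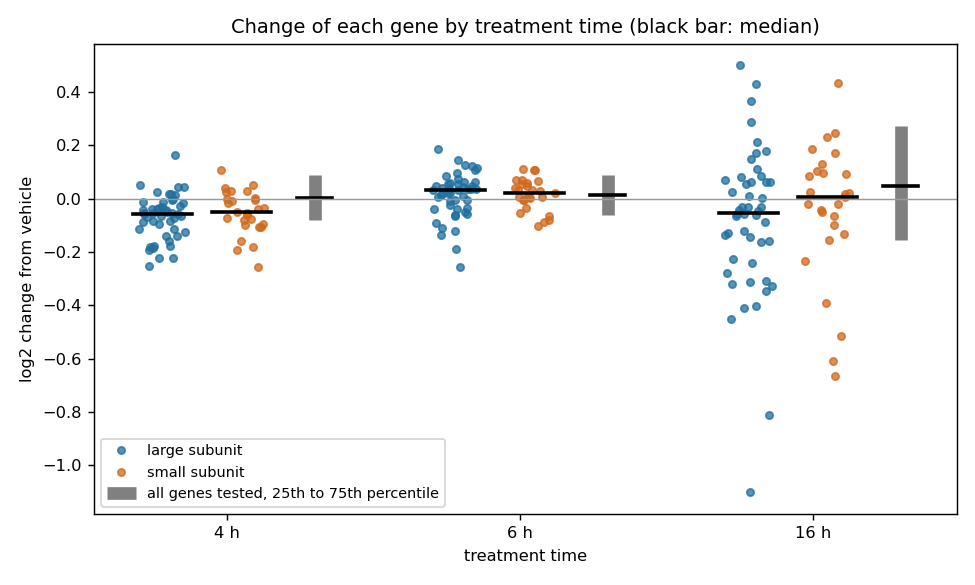
Log2 change from vehicle of every large-subunit and small-subunit gene at 4 h, 6 h and 16 h, with the median as a black bar; the grey bar spans the 25th to the 75th percentile of all genes tested. At 4 h and 6 h the points lie between -0.26 and 0.19, and at 16 h between -1.10 and 0.50.

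Probe sets of 1 gene often differed. Of the 75 genes 38 had a single probe set, and the others had 65 second probe sets, of which 50 (29 genes) were bright enough to test. Over probe sets, 19 of the family's 125 tested rose and 27 fell, against 23.0% and 16.7% of all 27306. Of the 50, 10 rose and 10 fell. The brightest and a second probe set both passed in 6 pairs, 4 in the same direction and 2 in opposite ones.

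The opposed pairs were those of MRPS18B and MRPS30. For MRPS18B the brightest probe set rose by 0.23, from a mean of 9.25 to 9.47, and the second went from 8.84 to 8.15, a change of -0.68 (limma adjusted p = 8.8e-05). For MRPS30 the brightest rose by 0.43 and a second went from 6.83 to 6.59, a change of -0.24 (limma adjusted p = 0.016), while another, at 0.22, did not pass. The directions of MRPS18B and MRPS30 therefore depend on the probe set, with averages over probe sets of -0.23 and 0.14. A further 14 second probe sets passed where the brightest probe set of the gene did not. Of these, rises were found in MRPL39 (1.18), where the vehicle mean of 1.76 was below the highest control, MRPS15 (0.88), MRPS18A (0.70), MRPL43 (0.47), MRPS25 (0.46 for each of a pair) and MRPL57 (0.29). Falls were found in MRPL57 (-0.84 and -0.25), MRPL52 (-0.75), MRPL35 (-0.56), MRPS5 (-0.41), MRPS10 (-0.32) and MRPL43 (-0.30).

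**Figure D5:**
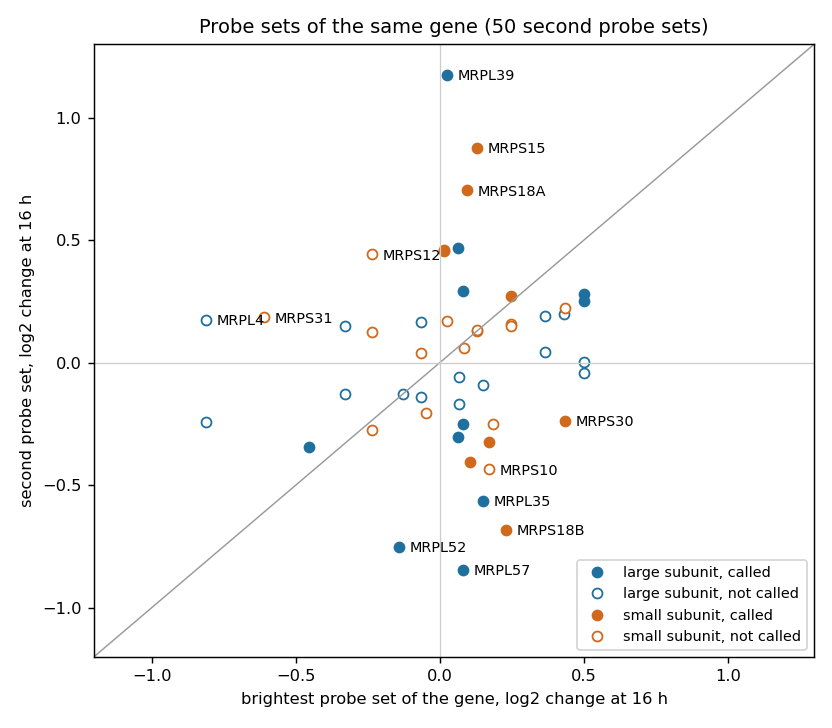
Log2 change at 16 h of 50 second probe sets (vertical) against the brightest probe set of the same gene (horizontal); filled points are second probe sets with an adjusted p below 0.05, and the diagonal marks equal change. Filled points for MRPS18B and MRPS30 lie at positive brightest and negative second values.

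The other proteins of the mitochondrial ribosome, which have other symbols, were represented by 4 tested genes. Of 3 tested in the small subunit, PTCD3 rose (0.22) and CHCHD1 fell (-0.19). DAP3, which binds GTP and has a part in cell death signalling, was at 0.25 and did not pass (limma adjusted p = 0.211). Without the first 16 h array DAP3 was at 0.41 and passed (limma adjusted p = 0.03). GADD45GIP1, of the large subunit, was at -0.26 (limma adjusted p = 0.0605).

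Among 27 assembly factors 5 rose (18.5%) and 1 fell (3.7%) at 16 h, beside 26.0% and 16.8% of all genes tested. ERAL1, the chaperone of the small-subunit RNA, fell from 8.68, 8.66 and 8.70 to 8.11, 7.65 and 7.58, a change of -0.90 ± 0.11 (limma adjusted p = 6e-05). FASTKD2, which binds the large-subunit RNA, and RPUSD3, a pseudouridine synthase, rose by 0.39 and 0.37. Among 17 translation factors 4 rose (23.5%) and 2 fell (11.8%). OXA1L, which inserts new chains into the inner membrane, read 8.28, 7.93 and 8.01 in vehicle and 7.20, 7.25 and 7.55 at 16 h, a change of -0.74 ± 0.10 (limma adjusted p = 0.000157). RMND1 rose by 0.46, MTFMT, which formylates the initiator tRNA, changed by -0.33, and TUFM, the elongation factor, stood at 0.06 and did not pass.

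Of 18 genes for mitochondrial DNA and transcription 7 rose (38.9%) and 2 fell (11.1%), beside 26.0% and 16.8% of all genes tested. TWNK, the DNA helicase, rose by 0.52, POLG, the DNA polymerase, by 0.46 and SUPV3L1, an RNA helicase, by 0.45. TFAM and POLRMT, needed to start transcription, stood at -0.08 and -0.04 and did not pass (limma adjusted p = 0.372 and 0.812). TFAM was at -0.17 under median centring and at -0.96 when its probe sets were averaged, and passed in both. Proteases and chaperones had 5 rises (35.7%) and no fall among 14 genes, led by HSPA9 (0.61), LONP1 (0.51) and CLPX (0.48). Import components had 2 of each among 16 (12.5%), among them TIMM44 at 0.61 and TIMM10 at -0.36.

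Among 12 regulators of mitochondrial gene expression 4 rose and 3 fell at 16 h, beside 26.0% and 16.8% of all genes tested. TFE3, a transcription factor of lysosomal and mitochondrial genes, read 5.32, 5.40 and 5.46 in vehicle and 6.68, 7.12 and 7.29 at 16 h, a rise of 1.64 ± 0.13 (limma adjusted p = 3e-06). HCFC1, a chromatin cofactor, changed by -0.61, and YY1 and NRF1 rose by 0.36 and 0.31. The call for NRF1 was lost under median centring (0.21, limma adjusted p = 0.0575), and without the first vehicle array, the second vehicle array or the third 16 h array (adjusted p of 0.071 to 0.0906). MYC read 10.18, 10.05 and 10.09 in vehicle, 9.73, 9.77 and 9.62 at 4 h, and 9.65, 9.54 and 9.58 at 16 h. MYC was the 1 regulator to pass at 4 h, by -0.40 (limma adjusted p = 0.0225), and was at -0.52 at 16 h.

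Cytosolic ribosomal proteins were set beside the family as the other ribosome of the cell. Of 32 tested in the large subunit 7 fell (21.9%) and 1 rose (3.12%) at 16 h. In the small subunit 7 of 21 fell (33.3%) and none rose. Over all genes tested 16.8% fell and 26.0% rose. Medians for the large and the small subunit were -0.06 and -0.14. Below 0 lay 23 of 32 cytosolic large-subunit and 19 of 21 cytosolic small-subunit genes. For the mitochondrial large and small subunit it was 29 of 48 and 13 of 27, and for all genes 43.9%. The falls among cytosolic small-subunit genes reached -0.29 (RPS18), and the largest in the cytosolic large subunit was -0.50 (RPLP2).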

How the data were processed

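Per array, the authors deposited 54675 log2 values, 1 for each probe set, on 12 arrays. The submitters' processing notes name GCRMA, a background correction that uses probe sequence followed by normalisation between arrays and summary over probes, without a version. Arrays so treated have nearly equal distributions, which hides any change common to most genes. No scanner files were used here, and the number of arrays limits precision. Platform symbols were updated through a RefSeq gene table, which left 41091 named probe sets.

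A gene was its probe set with the highest mean, and genes with a mean of 2.11 or more, the median of all probe sets, were tested. All arrays entered 1 model per gene with 4 groups (lmFit and eBayes of limma 3.58.1, under R 4.3.3, with 8 residual and 3.69 prior degrees of freedom). Tests were two-sided, with Benjamini-Hochberg adjustment over 12635 genes, and were tested on simulated data. The genes, lists and tests were chosen with earlier results of these data known, so counts and medians are descriptions. Full values are given for up to 8 falls and 8 rises at 16 h whose arrays did not overlap, opposed probe sets, up to 3 changed genes per related list and some genes in every case. Alternatives were other normalisations, filters, probe set choices and priors, array weights, a replicate term and leaving out each array.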

Additional observations from a re-analysis of the deposited data

Results flagged for a closer look

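Between 16 h and 6 h, 26 of the 75 genes passed (34.7%), against 42.7% of all genes. Among them are 17 of the genes given with full values, most of which were picked for their 16 h change, so that their number is not read as a result. The difference itself was tested, as the 16 h arrays against the 6 h arrays in the limma fit across all genes, and both changes share the vehicle arrays. Lower at 16 h were MRPL38 (-1.14), MRPL4 (-0.86), MRPS34 (-0.60), MRPS31 (-0.53), MRPS26 (-0.51), MRPL2 (-0.46), MRPL23 (-0.45), MRPL34 (-0.43), MRPL11 (-0.35), MRPS12 (-0.29) and MRPL12 (-0.26), on the log2 scale. Higher were MRPL30 (0.53), MRPL9 (0.40), MRPS30 (0.36), MRPL10 (0.34), MRPS18B (0.23) and MRPS22 (0.20). Adjusted p ran from 1.17e-06 for MRPL38 to 0.0263 for MRPS18B.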

How the results depend on the processing

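The number of genes of the family past the test at 16 h was 20 to 29 in the alternatives, against 27, lowest when only vehicle and 16 h arrays entered the fit (4 rose, 16 fell), and 22 to 26 with 1 array left out. The median change of the 75 genes stayed below 0, at -0.052 with quantile normalisation and -0.127 with median centring. The median was -0.041 over 71 genes when probe sets of the _s_at and _x_at classes were avoided where a gene had another. Genes with only those classes kept them. With 1 array left out the median was -0.044 to -0.016. Median centring gave -0.147 for the large and -0.090 for the small subunit. For 6 h against 4 h a trended and robust prior gave 2 calls and array weights gave 1, against 0; the other fits gave 0. Averaging probe sets turned MRPS18B (-0.227), MRPL47 (-0.008), MRPL12 (0.111) and MRPS12 (0.014), and avoiding those classes turned MRPL4 (0.175). The labels do not say what the replicate numbers share, and 5 of 18 correlations between deviations of same-numbered arrays were above 0.1, so the arrays were not taken as paired. Those correlations had a median of 0.083, against -0.056 (highest 0.130) for other-numbered arrays, and were 0.208 to 0.235 among the first arrays at 4 h, 6 h and 16 h. Arrays correlated best with their own number in 22 of 36 comparisons, a hint of pairing from the data and not the design. A replicate block gave 26 calls at 16 h, 17 lower and 9 higher. MRPL38, MRPS34, MRPS31, MRPS26, MRPL34, MRPL30, MRPS30, MRPL9 and MRPL11 kept their direction and call in all 16 alternatives. For genes with a single probe set, such as MRPL11 and MRPL34, averaging or another choice of probe set could not change the value. MRPL9 has only probe sets of the _s_at class, so avoiding that class could not change its value. Second probe sets of MRPS31, MRPL30 and MRPS30 did not all follow the brightest, as given above. The cause of these differences was not tested. Signal over background limited none of the 75 brightest probe sets, but 15 second probe sets were too dim to test.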
